A study of Homo sapiens with 6 samples.

Results

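The BCL2 family genes described here are BOK and 9 relatives that set or release the brake on mitochondrial cell death: BAX and BAK1, the guards BCL2, BCL2L1, BCL2L2 and MCL1, and the BH3-only genes BID, BBC3 and PMAIP1. They are 10 of the 26485 gene symbols counted, and were taken by symbol. BOK was picked on its fall in these same libraries, so its change is given as a description with no test, while the other 9 came in as members of the family. The cells were A549, a human lung adenocarcinoma line, with lentiviral transgenes for rat Nkx2-1, a lung transcription factor, and for dCas9-KRAB, a Cas9 that cannot cut DNA joined to the KRAB repressor domain. Cells in both groups carried both transgenes, after puromycin selection and GFP sorting, and whether they were 1 clone or a pool is not given in the sources used here. In 3 libraries the cells had received 50 nM of the synthetic sgRNA #2, which directs dCas9-KRAB to the first intron of SFTPB, and in the other 3 libraries 50 nM of a non-targeted sgRNA (sgRNA control). The comparison asks what else in the transcriptome differed when that intron was targeted, and the study describes its RNA-seq libraries as biological triplicates.

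BCL2 family proteins meet at the outer mitochondrial membrane. BAX and BAK1 form the pores that let cytochrome c out, the guards bind them and hold them in check, and BH3-only proteins answer stress by blocking the guards or by engaging the pore formers directly. BOK resembles BAX and BAK1 in sequence, but its protein is kept low by degradation at the endoplasmic reticulum with the help of the ATPase VCP, and it binds inositol trisphosphate (IP3) receptors, the calcium release channels of that membrane. RNA-seq measures the transcripts of these genes and says nothing of protein, of BH3 binding or of cell death.

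The promoter of BOK holds letters in common with sgRNA #2, and they are printed here because BOK was the family member with a long match. The target of sgRNA #2 lies in an intron of SFTPB on the minus strand of chr2:85668529-85668551 (GRCh38). The matching stretch near BOK lies on the plus strand of chr2:241558537-241558559. Both are written from 5′ to 3′, and the capitals mark the 11 bases next to the PAM that are the same in both, followed by the PAM itself (NGG, the short motif that Cas9 needs beside its target).

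sgRNA #2 target with PAM: gggatgggaGGGGAACACCCAGG

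BOK site: atggaccccGGGGAACACCCAGG

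Numbering the sgRNA from 1 at its 5′ base, 8 positions differed (G1A, G2T, A4G, T5A, G6C, G7C, G8C and A9C), all of them in the PAM-distal part. The centre of the BOK stretch lies 197 bp upstream of the start of the canonical BOK transcript, at 241558745. In GENCODE release 44 it falls in no exon, and in introns of 1 longer BOK transcript without a defined coding sequence and of BOK-AS1, a non-coding gene on the opposite strand. The 238 bases up to the BOK start, shown so that the place of the match can be seen (RefSeq, GRCh38.p14, plus strand, chr2:241558507-241558744), carry the same letters in capitals.

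BOK promoter stretch: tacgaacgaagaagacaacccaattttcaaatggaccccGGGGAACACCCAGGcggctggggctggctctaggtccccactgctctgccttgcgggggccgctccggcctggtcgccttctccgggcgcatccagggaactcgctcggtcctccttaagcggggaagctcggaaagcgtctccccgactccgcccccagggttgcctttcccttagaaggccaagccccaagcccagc

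The RefSeq window of 250 bases before the BOK start had a GC content of 64.4% and 17 CpG dinucleotides. Searched on both strands with NGG after it and within 1000 bp of any annotated start, a match of at least 11 PAM-proximal bases was found in 9 of 13081 tested genes with a position (0.0688%), and one of at least 10 bases in 28 (0.214%). The 9 include SFTPB, the intended target, as well as BOK and SNPH. Among 35116 RefSeq promoter windows, which hold 250 bases before and 50 after each start, the 11-base match was found in 1 (0.00285%), that of BOK, and the 10-base match in 3 (0.00854%). These narrower windows leave out the matches of SFTPB and SNPH, so that count depends on the window. The length of 11 bases was taken from the BOK site itself, so BOK is among the matches by construction. The shares above are descriptions, with no test. In the other 9 members the longest match was short. It was 6 bases for BID and BBC3, a length that 24.0% of tested genes reach, and under 6 bases for BAX, BAK1, BCL2, BCL2L1, BCL2L2, MCL1 and PMAIP1. Such a match is shared letters, not a measured binding site, and no binding of dCas9-KRAB was measured in these libraries.

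Depth of the libraries was similar across the groups, and their identity was read from marker genes. Reads counted on genes ranged from 6341459 to 7584611 in the sgRNA control libraries and from 6047554 to 7058274 in the sgRNA #2 libraries, and 13356 genes had at least 10 counts in at least 3 libraries and were tested. SFTPB, the gene targeted, gave 417 ± 9.92 CPM (counts scaled to library size; SD, n = 3) in the control and 6.72 ± 1.29 CPM with sgRNA #2. The epithelial markers KRT7, KRT8, KRT18 and CDH1 were abundant, while EPCAM was low (8.4 CPM in the control and 8.0 CPM with sgRNA #2) and KRT19 gave at most 4 counts. The 6 epithelial markers summed to 3590 to 4550 CPM in the control and 3380 to 4160 CPM with sgRNA #2. Of these, CDH1 (E-cadherin) fell, by 0.34 on the log2 scale (adjusted p = 0.00728, quasi-likelihood test of edgeR, Benjamini-Hochberg adjusted over all tested genes). KRT8 was at -0.13, with an adjusted p of 0.684 in edgeR without the replicate block and 0.0235 with it. Marker lists of other cell types were low, with sums of at most 3.26 CPM for 4 leukocyte markers, 0.85 CPM for 3 endothelial and 8.92 CPM for 4 fibroblast markers. PTPRC, CD3E, CDH5, COL1A2 and DCN had no count in any library. COL1A1 made up nearly all of the fibroblast sum, at 7.2 CPM in the control and 7.6 CPM with sgRNA #2, near the level of EPCAM. ITGAM, the only leukocyte marker with counts, was at 2.04 and 1.38 CPM.

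All 10 members passed the count filter, and BOK alone passed the cut-offs used to call a gene, a log2 fold change of at least 1 in size with an adjusted p under 0.05. Among all tested genes 0.719% passed them in either direction and 0.689% were lower, and nothing is read from BOK's own place among them, since that contrast chose it. With the adjusted p alone, 2.69% of all tested genes passed and 0 of the 9 other members did, by edgeR as by DESeq2, while 1 of the 9 (MCL1) had an unadjusted p under 0.05, beside 11.1% of all tested genes. The log2 fold changes of the 9 lay between -0.28 and 0.16 with a median of 0.07, beside a median of 0.00 over all tested genes. Of these 9, 8 were on the higher side and 1, BCL2, on the lower, and the sign of BAX, BAK1 and BID, all near 0, turned when single libraries were left out.

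In the control, BOK gave 539, 704 and 604 counts per library, and with sgRNA #2 it gave 25, 24 and 20. Scaled to depth, these are 85.8, 99.8 and 79.4 CPM against 3.56, 3.60 and 3.33 CPM. The 3 control libraries stood far above the 3 sgRNA #2 libraries. The mean went from 88.3 ± 10.4 to 3.50 ± 0.146 CPM (SD, n = 3), which left 3.99% of the control level, a fitted log2 fold change of -4.65 (SE 0.139, 95% confidence interval -4.94 to -4.35). What remained was above the detection floor of 3 counts per library, which equals 0.396 to 0.496 CPM, so the fold is not a lower bound. In RNA from a whole culture, a lower level in every cell and a loss from a part of the cells cannot be told apart. The BOK gene (ENSG00000176720.6) lies on the plus strand of chromosome 2 from 241551424 to 241574131. BOK-AS1 overlaps its start on the opposite strand and gave 1, 6 and 2 counts in the control and 1 count in each sgRNA #2 library, too few to add much to the BOK counts whichever strand was counted.

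**Figure D1:**
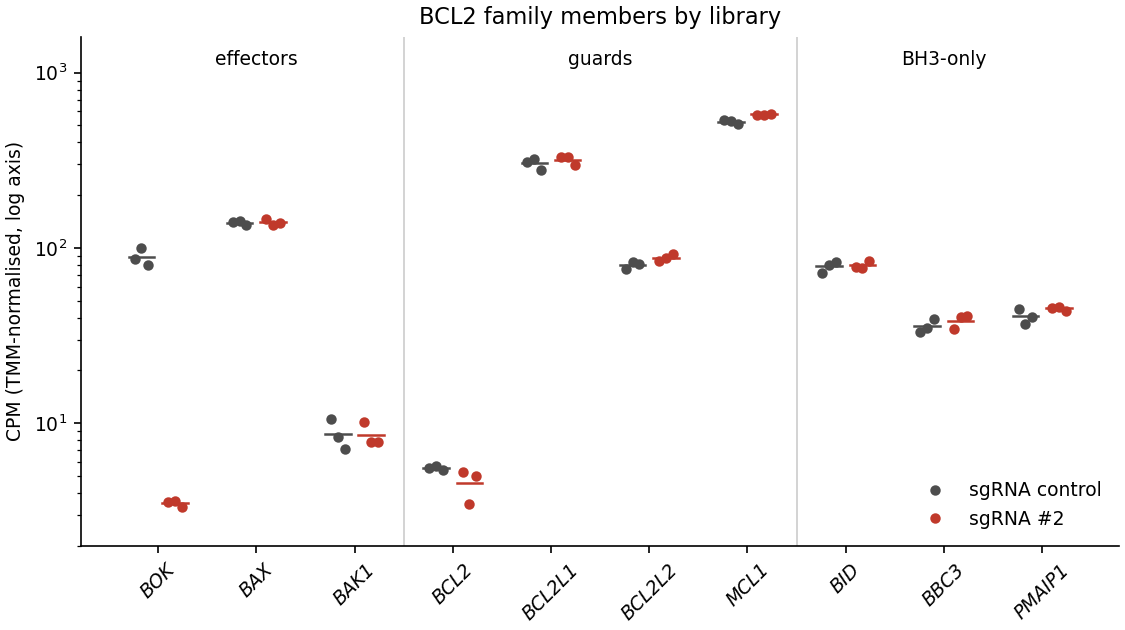
Level of each of the 10 members in every library (CPM on a log axis, points are libraries, short lines are group means, n = 3). The sgRNA #2 points of BOK sit between 3.33 and 3.60 CPM, below its control points of 79.4 to 99.8 CPM, while the points of the other members lie close together.

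BAX and BAK1, the pore formers, did not pass the test, and their libraries overlapped between the groups. BAX gave 140, 142 and 135 CPM in the control and 145, 135 and 139 CPM with sgRNA #2. Its log2 fold change was 0.01 (SE 0.0642, 95% confidence interval -0.13 to 0.14; adjusted p = 0.983, same edgeR test). At 833 to 1030 counts per library BAX was the best measured of the effectors. BAK1 was a low transcript with 66, 59 and 54 counts in the control and 71, 52 and 47 with sgRNA #2, or 10.5, 8.36 and 7.10 CPM against 10.1, 7.81 and 7.83 CPM. In both groups replicate 1 was the highest. Its log2 fold change was 0.00 with a wide interval of -0.39 to 0.40 (SE 0.189; adjusted p = 0.997, same edgeR test), so a BAK1 change of up to about that size was not detectable at this depth.

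The guards that are abundant in these cells, MCL1 and BCL2L1, did not pass it either. MCL1, a short-lived guard, gave 536, 529 and 511 CPM in the control and 574, 573 and 582 CPM with sgRNA #2. All 3 sgRNA #2 libraries lay above all 3 control libraries, with a mean of 576 ± 5.21 against 525 ± 12.9 CPM (SD, n = 3). The log2 fold change was 0.13 (SE 0.0598, 95% confidence interval 0.01 to 0.26), with an unadjusted p of 0.0379 and an adjusted p of 0.388 (same edgeR test). Blocked by replicate number, the fit gave MCL1 an adjusted p of 0.0183 at the same fold change, in a fit where 10.0% of all tested genes passed. BCL2L1, which encodes BCL-XL, gave 309, 323 and 276 CPM in the control and 328, 329 and 296 CPM with sgRNA #2. Its groups overlapped, with the third library lowest in both, and its log2 fold change was 0.07 (SE 0.0714, 95% confidence interval -0.08 to 0.22; adjusted p = 0.815, same edgeR test).

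BCL2L2 and BCL2 were the less abundant guards. BCL2L2, which encodes BCL-W, gave 75.8, 83.5 and 80.5 CPM in the control and 83.8, 87.0 and 92.1 CPM with sgRNA #2, without overlap between the groups. Its log2 fold change was 0.13 (SE 0.0723, 95% confidence interval -0.02 to 0.28; adjusted p = 0.551, same edgeR test). BCL2, the founding guard, had few counts in these libraries, with 35, 40 and 41 in the control and 37, 23 and 30 with sgRNA #2. In CPM the control libraries were close together at 5.57, 5.67 and 5.39, and the sgRNA #2 libraries lay below them, between 3.45 and 5.26. The log2 fold change of -0.28 had an interval of -0.74 to 0.19 (SE 0.221; adjusted p = 0.74, same edgeR test), and was -0.11 without sgRNA #2 replicate 2. Across the 9 members other than BOK the groups did not overlap in 3 (BCL2, BCL2L2 and MCL1), beside 15.6% of all tested genes.

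The BH3-only genes BID, BBC3 and PMAIP1 overlapped between the groups. BID, whose protein is cut by caspase-8 to carry death receptor signals to mitochondria, gave 72.1, 80.2 and 82.8 CPM in the control and 78.0, 76.3 and 84.3 CPM with sgRNA #2. Its log2 fold change was 0.02 (SE 0.0768, 95% confidence interval -0.14 to 0.18; adjusted p = 0.966, same edgeR test). BBC3 encodes PUMA, a p53-induced BH3-only protein. It gave 33.1, 35.0 and 39.4 CPM against 34.4, 40.3 and 40.8 CPM, with a log2 fold change of 0.10 (SE 0.102, 95% confidence interval -0.12 to 0.31; adjusted p = 0.826, same edgeR test). PMAIP1 encodes NOXA, a partner of MCL1. It gave 44.6, 37.0 and 40.2 CPM in the control and 45.5, 46.3 and 43.8 CPM with sgRNA #2, where 1 control library reached into the sgRNA #2 range. Its log2 fold change of 0.16 was the largest on the higher side among the members (SE 0.0923, 95% confidence interval -0.04 to 0.35; adjusted p = 0.586, same edgeR test). The farthest bound of the 9 intervals was that of BCL2 at -0.74, a 1.67-fold difference, so for these 9 the data leave no interval that reaches a 2-fold change.

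**Figure D2:**
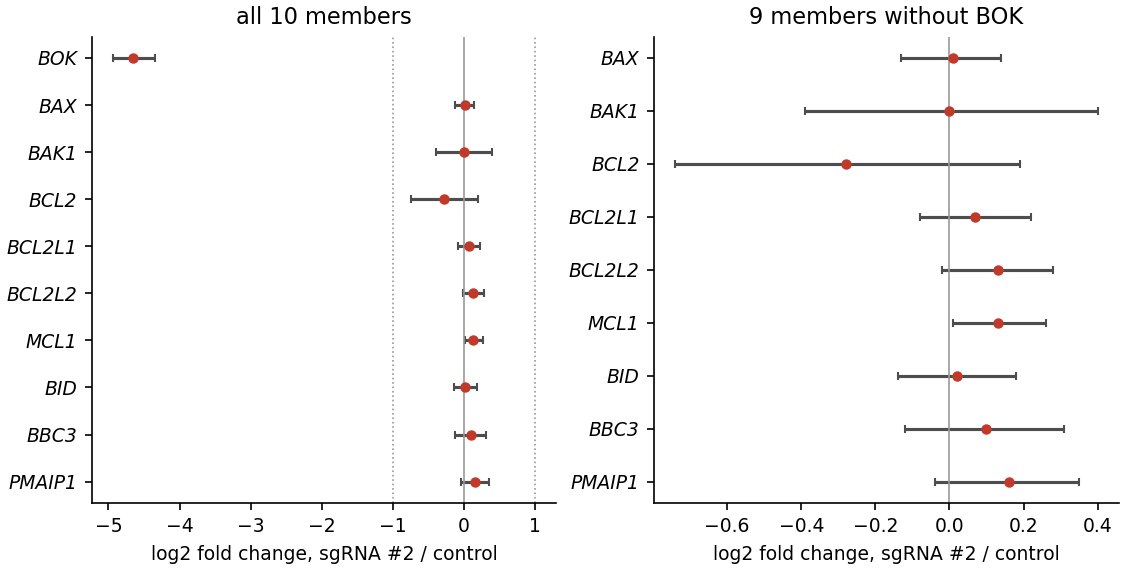
Log2 fold change (sgRNA #2 over control) of the 10 members on the left and of the 9 without BOK on a wider scale on the right, where points are edgeR estimates and bars are 95% confidence intervals, and dotted lines on the left mark 2-fold. BOK stands at -4.65 and every other interval lies between -0.74 and 0.40.

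Some of these counts share ground with other genes in GENCODE release 44. BAX and PMAIP1 overlap no other gene, and BAK1, BCL2, BCL2L1, BCL2L2, MCL1, BID and BBC3 each overlap 1 or more, most of them on the opposite strand. The strand setting of the counting is not given in the sources used here, so for these genes reads of a gene and of its overlapping partner may not be told apart. BCL2L2-PABPN1, a read-through gene that shares exons with BCL2L2, was listed at 0 in all 6 libraries.

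Divided by the length of the canonical transcript, the control levels fell into 4 tiers. BAX (175 ± 4.27 CPM per kb), MCL1 (133 ± 3.27) and BCL2L1 (118 ± 9.27) formed the highest, followed by BID (36.0 ± 2.56) and BOK (33.6 ± 3.96), whose libraries overlapped. BCL2L2 (22.7 ± 1.09), PMAIP1 (21.4 ± 2.01) and BBC3 (19.4 ± 1.76) came next, each overlapping its neighbour in the order. BAK1 (3.99 ± 0.795) and BCL2 (0.806 ± 0.0205) were lowest. BOK was thus a mid-level family transcript in the control, at percentile 80.6 of tested genes per length, and with sgRNA #2 it was ninth of the 10 at 1.33 ± 0.0555 CPM per kb, between BAK1 at 3.95 ± 0.607 and BCL2 at 0.664 ± 0.142. The order of the members, and so the tiers, depends on the length used. The canonical transcript of BAX has 795 bases and the merged exons of its transcripts 2587, and for BID these are 2177 and 4420. With merged exons MCL1 led (84.4 CPM per kb), then BCL2L1 (72.2), BAX (53.8) and BOK (33.0). BID (17.7) then stood below BOK and beside PMAIP1 (18.6). With sgRNA #2, BOK was again ninth (1.30).

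Seen as a share of effector transcripts (BOK, BAX and BAK1 per length), BOK made up 15.3, 17.2 and 14.8% in the control and 0.717, 0.784 and 0.707% with sgRNA #2. The mean went from 15.8 ± 1.26% to 0.736 ± 0.0416% (SD, n = 3), and BAX made up the larger part of the rest, 82.3% in the control and 97.1% with sgRNA #2. These shares hold BOK and are a description of the same fall. By merged exon length the BOK share was 36.3 ± 2.19% and 2.21 ± 0.127%, so how large BOK stands beside BAX depends on the BAX transcript that these cells use. The summed effector level was 213 ± 8.40 CPM per kb in the control and 181 ± 7.01 with sgRNA #2, or 85.2%. Without BOK it was 179 ± 4.72 and 180 ± 7.01 CPM per kb.

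**Figure D3:**
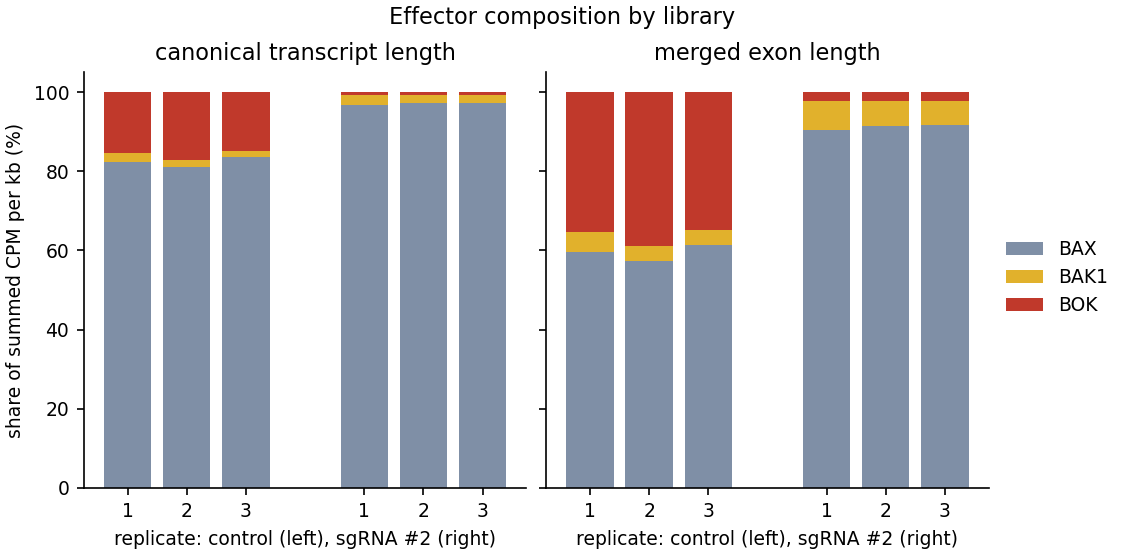
Share of BAX, BAK1 and BOK in their summed level per kb in each library, by canonical transcript length (left) and by merged exon length (right). In the sgRNA #2 libraries the BOK part is a thin band at the top, 0.707 to 0.784% on the left, while BAX fills most of each bar.

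The composition of the guards does not use BOK, and 3 libraries against 3 cannot give an exact permutation p below 0.10, so these tests could not pass. MCL1 made up 48.5 ± 1.27% of the summed guard level per length in the control and 49.5 ± 1.27% with sgRNA #2 (two-sided exact permutation test, p = 0.50), and BCL2L1 42.9 ± 1.49% and 41.8 ± 1.80% (exact p = 0.50). BCL2L2 made up 8.28 ± 0.520% and 8.43 ± 0.537% (exact p = 0.80). BCL2 was a trace of it, 0.294 ± 0.00589% and 0.226 ± 0.0495%, without overlap between groups. Its exact permutation p was 0.10. Between same-numbered libraries the MCL1 share was higher with sgRNA #2 in 3 of 3 pairs, and the BCL2L1 share lower in 3 of 3. The MCL1 difference of 0.972 percentage points went to 0.243 without sgRNA #2 replicate 3, to 0.284 without control replicate 2 and to 1.54 without control replicate 3. The summed guard level was 278, 284 and 260 CPM per kb in the control and 297, 298 and 289 with sgRNA #2, and that of the BH3-only genes 76.8 ± 3.30 and 81.2 ± 2.73.

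Genes whose proteins bind BOK, BAK1 or BID were read as a list of 10. Of these, 1 passed an adjusted p under 0.05, beside 2.69% of all tested genes, and it was lower. ITPR2, the gene of the type 2 IP3 receptor, gave 145, 189 and 174 counts in the control and 81, 92 and 80 with sgRNA #2, or 24.3 ± 2.20 and 12.9 ± 1.21 CPM (SD, n = 3). All 3 sgRNA #2 libraries were below all 3 control libraries, and 15.6% of all tested genes had no overlap between the groups. The log2 fold change was -0.91 (SE 0.128, 95% confidence interval -1.18 to -0.64; adjusted p = 2.52e-04, same edgeR test), which is short of the 2-fold cut-off, and single libraries moved it no further than -0.97 and -0.83 when left out. Near the starts of ITPR2 the longest match to sgRNA #2 was 6 bases. The other receptor genes gave different values. ITPR1 had 73, 96 and 80 counts against 83, 93 and 79, a log2 fold change of 0.12 (SE 0.151, adjusted p = 0.86, same edgeR test), and ITPR3, with the most counts of the 3, had a log2 fold change of 0.07 (SE 0.0657, adjusted p = 0.804, same edgeR test). VCP, which acts in the turnover of BOK protein, was at 0.02, and the median of the list was 0.04. VDAC2, a mitochondrial channel that holds BAK1, and MTCH2, a receptor for cleaved BID, were at 0.11 and 0.06, neither past an adjusted p under 0.05.

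The rest of the BCL2 family was read as a list of 13 genes, of which 9 were tested. At an adjusted p under 0.05, 0 of the 9 passed, beside 2.69% of all tested genes. The log2 fold changes of the 9 had a median of -0.04 and a range of -0.40 to 0.10. BCL2L10, BIK, HRK and BCL2L14 had at most 5 counts in any library and were not tested. The largest values were those of BCL2L15, at -0.40 (SE 0.285, adjusted p = 0.689, same edgeR test) on 12 to 26 counts per library, and BCL2L12, at -0.17 (SE 0.135, adjusted p = 0.735, same edgeR test). With the replicate block 1 of the 9 passed, beside 10.0% of all tested genes. This was BCL2L11, the gene of the BH3-only protein BIM, named here after its value was seen. It was at -0.15 with an adjusted p of 0.406 in edgeR without the block and 0.0281 with it.

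Downstream of the pore, 23 genes of the caspase cascade and its inhibitors were tested. At an adjusted p under 0.05, 0 of the 23 passed, beside 2.69% of all tested genes. At an unadjusted p under 0.05, 1 did, beside 11.1% of all tested genes. The median log2 fold change of the 23 was -0.01 and their range -0.23 to 0.31. At the ends of the range were BIRC3, an inhibitor of apoptosis protein (0.31, SE 0.119, adjusted p = 0.268, edgeR), and DFFB, the caspase-activated nuclease (-0.23, SE 0.213, adjusted p = 0.782, edgeR). Both values moved with single libraries: BIRC3 was at 0.17 without control replicate 3, and DFFB at -0.60, -0.06 and -0.07 without sgRNA #2 replicates 3, 2 and 1. With the replicate block 2 of the 23 passed, beside 10.0% of all tested genes. These were BIRC3 (adjusted p = 5.98e-05, edgeR with the block) and CYCS, the gene of cytochrome c (0.15 on the log2 scale, adjusted p = 0.00887), the latter named after its value was seen. Of 5 genes that act on MCL1 protein turnover, 0 passed with or without the block, beside 10.0% and 2.69% of all tested genes. The log2 fold changes of the 5 lay between -0.04 and 0.05. Among these BTRC was at 0.05 (adjusted p = 0.897, edgeR) and MARCH5, also called MARCHF5, at -0.04 (adjusted p = 0.919, edgeR).

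The p53 axis was read because BAX, BBC3 and PMAIP1 are p53 target genes. Of 4 genes tested, 0 passed an adjusted p under 0.05, beside 2.69% of all tested genes. An unadjusted p under 0.05 was found for 2 of the 4, beside 11.1% of all tested genes. The median log2 fold change of the 4 was 0.07. MDM2, the ubiquitin ligase that p53 induces and that degrades it, was at 273 ± 26.7 CPM in the control and 318 ± 20.1 CPM with sgRNA #2 (SD, n = 3), without overlap between the groups. Its log2 fold change was 0.22 (SE 0.0759, adjusted p = 0.186, edgeR), or 0.14 without control replicate 3, and with the replicate block the adjusted p was 1.83e-05. MDM4, its relative, was at 61.8 ± 3.09 and 70.1 ± 3.79 CPM, also without overlap, with a log2 fold change of 0.18 (SE 0.0777, adjusted p = 0.372 in edgeR without the block and 0.0461 with it). Among all tested genes 15.6% had no overlap between the groups, and 10.0% passed with the block. CDKN1A, the p53 target that encodes the cell cycle inhibitor p21, was at -0.04 (SE 0.130, adjusted p = 0.954, edgeR).

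**Figure D4:**
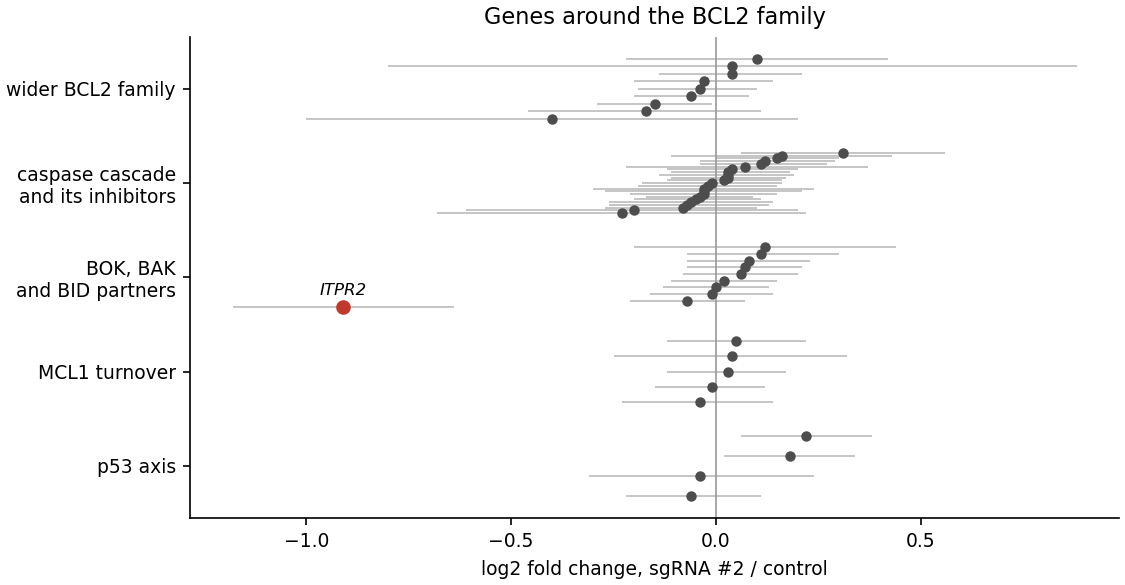
Log2 fold change (sgRNA #2 over control) of every tested gene in the 5 lists around the BCL2 family, with points for edgeR estimates and bars for 95% confidence intervals. ITPR2 at -0.91 is the only gene past an adjusted p under 0.05 and is drawn as a larger red point, and the other genes lie between -0.40 and 0.31.

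None of the tested genes that lie beside BOK on chromosome 2 passed the test. Within 500 kb of the BOK start 19 other genes are listed, of which 12 were tested. At an adjusted p under 0.05, 0 of the 12 passed, beside 2.69% of all tested genes. An unadjusted p under 0.05 was found for 2 of the 12, beside 11.1% of all tested genes. The log2 fold changes of the 12 had a median of -0.05 and a range of -0.45 to 0.21. The nearest tested were STK25, a kinase gene whose start is at -50161 bp from that of BOK (-0.07, SE 0.0679, adjusted p = 0.798, edgeR), and THAP4 and ATG4B, 78413 and 78948 bp after it (-0.04 and -0.07, adjusted p = 0.885 and 0.862, edgeR). With the replicate block 2 of the 12 passed, beside 10.0% of all tested genes, and both are named after their values were seen. FARP2 was at -0.45 (SE 0.137, adjusted p = 0.115 in edgeR without the block and 0.0087 with it) and PASK at 0.21 (0.285 without and 0.0248 with it).

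**Figure D5:**
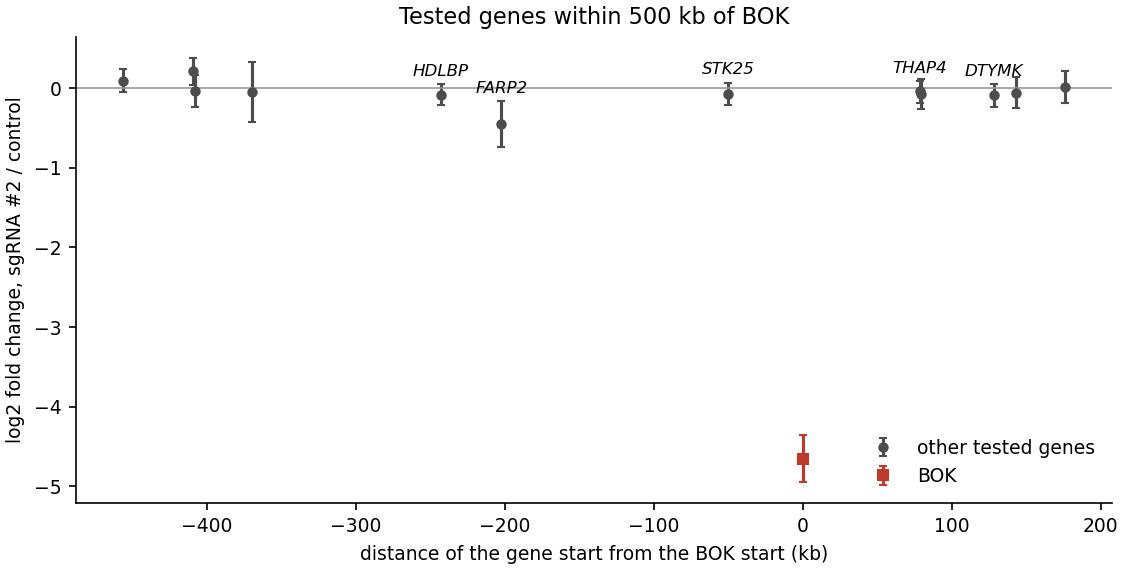
Log2 fold change (sgRNA #2 over control) of BOK and the 12 other tested genes with a start within 500 kb, against the distance of their start from that of BOK in kb, with 95% confidence intervals as bars. BOK stands alone at -4.65, and the other genes lie between -0.45 and 0.21.

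Among the genes whose pattern over the 6 libraries was most like that of BOK, by Pearson's r of log2 CPM, were SNPH (r = 0.9981), ZNF511 (0.9978), RUSC1 (0.9977) and MAGED2 (0.9972). In all, 36 tested genes other than BOK had an r above 0.99. With 3 libraries in each group such an r is set almost wholly by the step between the groups relative to the spread within them, and steps of different size reached it. ZNF511, for example, had a log2 fold change of -1.45 (SE 0.117), RUSC1 one of -2.86 (SE 0.132) and MAGED2 one of -3.85 (SE 0.102). Around their starts the longest match to sgRNA #2 was 11 bases for SNPH, 6 for ZNF511 and MAGED2 and under 6 for RUSC1. A pattern like that of BOK therefore occurred with long and with short matches.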

How the data were processed

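The authors deposited raw counts of reads per gene symbol from htseq-count, without normalization, for 6 libraries. The submitters' processing notes name hg38, Trim Galore, FastQC, Bowtie2 2.3.3.1, SAMtools, Picard and HTSeq without their roles, and the annotation and strand setting are not given in the sources used here. Rows that name no gene were left out (19.7 to 21.1% of reads outside genes, 2.61 to 2.75% ambiguous), and the rows for unaligned and multiply aligned reads were at 0.

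Genes that reached 10 counts in 3 or more libraries were fitted in R 4.3.3 with edgeR 4.0.16 (TMM factors, quasi-likelihood test, group as the only term) and p-values were adjusted over all 13356. The standard error is the log2 fold change divided by the square root of F, and CPM are TMM-scaled. DESeq2 1.42.0 was an alternative, beside RLE factors, library totals, other filters, the replicate block, leaving out each library and, added after seeing the data, merged exon lengths. The scripts were tested on simulated data. The detection floor was 3 counts per library, and the floor covers counting error only. Libraries of a group differed by more than sampling noise (chi-square per degree of freedom 2.73 to 3.61).

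Replicate numbers come from the sample labels. Deviations from the group means correlated between same-numbered libraries (r = 0.269, 0.287 and 0.291). The r between others (-0.180 to -0.100) is no separate evidence, since such deviations cancel out within a group. The main fit left this pairing out, and the replicate block was the alternative that used it. The prior degrees of freedom were 13.0 without the block and infinite with it, so p-values with the block rest on the trended dispersion alone.

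Positions are from GENCODE release 44 (GRCh38). Of the 26485 symbols 23161 matched by symbol, 1368 through a RefSeq synonym and 1956 not. sgRNA #2 was read from the study's supplement. The members and lists were chosen with earlier results of these data known. The genes named are the members, SFTPB, genes of the other lists past an adjusted p under 0.05 and the 2 of each list with the largest change, the 3 nearest tested neighbours of BOK and the 5 genes most like it. Others are named with a list they belong to, and part of what this rule and the lists hold is not reported here.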

Additional observations from a re-analysis of the deposited data

How the results depend on the processing

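With 1 choice changed at a time over 12 settings, the log2 fold change of BOK stayed between -4.72 and -4.55. Of the 9 members other than BOK, 0 passed an adjusted p under 0.05, and with the replicate block 1 (MCL1) did. BOK was picked on its fall and is not counted. With the block the wider BCL2 family gave 1, the caspase cascade 2, the p53 axis 2 and the genes near BOK 2. Without it each gave 0. Of all tested genes 10.0% passed with the block and 2.69% without it. Among the epithelial markers KRT8 passed with the block as well as CDH1, and the block changed no other call of the genes named here. Without a count filter the caspase cascade gave 1 (BIRC3) and the p53 axis 1 (MDM2). The cause of these differences was not tested. The BOK share of effector transcripts differed by -15.1 percentage points by canonical length, -35.0 without division by length and -34.1 by merged exon length.

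Signs turned only for values near 0. BAX went to -0.02 and -0.01 when a library was left out (range -0.02 to 0.03), BAK1 to -0.13 and -0.01 (range -0.13 to 0.16) and to -0.01 with the block, BID to -0.04 and -0.03 (range -0.04 to 0.06), and MARCH5 to 0.00 and 0.02 (range -0.13 to 0.02). Of the remaining log2 fold changes of the 29 named genes, 328 kept their direction and side of the threshold and 6 newly passed it. At 23 to 71 counts per library, BAK1 and BCL2 have the widest intervals of the members.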
